A study of Mus musculus with 61 samples.

Results

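The mouse potassium channel genes were examined in pancreatic ductal organoid cells that had been reprogrammed with Ngn3, Pdx1 and MafA. The genes were those of the deposited count table whose symbol begins with Kcn, without Kcnj11 and without 5 antisense or opposite-strand genes, among them Kcnq1ot1. This gave 93 of the 46078 genes in the table. Organoids grown from C57BL/6 ducts were infected with separate lentiviruses for GFP-Ngn3, LSSOrange-Pdx1 and tdTomato-MafA together with a doxycycline-dependent transactivator, and all cells were sorted after 8 days of transgene induction. Ngn3 was either wild-type (WT) or the phospho-mutant 6SA, in which serines of Ngn3 are replaced by alanine, and each organoid culture received one of these forms.

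Cells were sorted by colour in pools of 50, so that each library held cells with the same factors. Cells carried Pdx1 alone, MafA alone or both, and each of these 3 sets was sorted with and without Ngn3 from WT and from 6SA cultures, which made 12 conditions. Cells without Ngn3 came from cultures that had received the Ngn3 virus and the same doxycycline, and were negative for GFP. Uninfected cells and cells with Ngn3 alone were not analysed here. Of 61 libraries, 58 held over 1000000 counts on genes and were kept. Technical repeats were summed, which gave 32 samples, 17 with Ngn3 and 15 without, with 2 or 3 samples per condition and 2579583 to 19461008 counts on genes per sample. Replicates 1 and 2 were of passage 2 and replicate 3 was of passage 5. The 3-factor cells of the 6SA cultures had no sample of passage 5, because its library was below the count limit. Cells with Pdx1 alone of both cultures and with MafA alone of the WT cultures had no library of passage 5. Passage is thus not balanced between samples with and without Ngn3, and its part in these contrasts was not tested.

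Potassium channels let potassium leave or enter the cell along its gradient and so set the membrane potential. Voltage-gated channels open on depolarisation and end each action potential. Calcium-activated channels open when calcium rises, inward rectifiers pass potassium more easily into the cell, and two-pore-domain channels carry the leak at rest. Auxiliary subunits of the KCNE, KChIP and calcium-activated channel beta families change the gating of the pores. In the pancreatic duct, potassium channels on the basolateral and apical membranes keep up the driving force for bicarbonate and fluid secretion. In islet cells, closure of KATP channels depolarises the cell, and voltage-gated and calcium-activated channels repolarise it and so shape the secretion of insulin and glucagon.

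Neurog3, the gene of Ngn3, had a lowest, median and highest level of 7.87, 62.6 and 329 CPM (counts scaled to 1000000 per sample) over the samples with Ngn3, and of 0, 0.180 and 0.788 CPM over those without, so its level followed the labels in every sample. Reads of the transgene and of the endogenous gene share the coding sequence and cannot be told apart. Duct identity was checked with 10 markers, of which 7 were lower with Ngn3, and Krt7, Sox9 and Epcam did not pass the test. All 10 endocrine markers were higher with Ngn3, and their summed level was 502 to 14270 CPM with Ngn3 and 1.32 to 9.01 CPM without. Of the other lists, summed acinar markers stood at 0.130 to 19.7 CPM with Ngn3 and 0.617 to 17.1 without, immune markers at 0 to 43.6 and 1.23 to 18.2, endothelial markers at 0 to 27.0 and 0 to 1.56, mesenchymal markers at 0.204 to 298 and 0.143 to 14.8, and glial markers at 0.454 to 11 and 0.857 to 6.80. Among these 5 lists, Cela1 and S100b were lower with Ngn3 and no gene was higher, while Prss1, Amy2a5, Pnlip, Ptf1a, Lum, Adgre1 and Sox10 had no count in any sample. Pools of 50 cells are bulk samples, in which fewer cells of a type and less RNA per cell cannot be told apart.

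A contrast of samples with and without Ngn3, averaged over the 6 same-culture, same-partner pairs of conditions, asked which channels changed with Ngn3. Of the 93 channel genes, 70 passed the filter on low values and were tested together with all other genes. By edgeR's quasi-likelihood test at a Benjamini-Hochberg adjusted p under 0.05, 25 channel genes were higher with Ngn3, where 11.1% of all 24004 genes tested were higher. Another 6 were lower, where 10.5% of all genes were lower. For 25 of the 70 channel genes the contrast was undefined, as described for Kcnj5. Over the other 45 the median log2 fold change was 2.16, and it was 0.02 over the 18890 genes of the whole table with a defined contrast. The former was 1.99 when channel genes without any count in the samples without Ngn3 were set to the smallest fold that the counts allow. A gene with no count in a condition without Ngn3 has a defined contrast only with counts in every condition with Ngn3. These medians thus hold only for genes with a defined contrast, which are in part selected by the change itself.

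Switched-on channels were defined as those called higher, with a median under 0.5 CPM without Ngn3 and with more than 3 counts in at least 2 of 3 of the samples with Ngn3. This held for 12 genes, of which Kcnma1, Kcnb2, Kcnk16, Kcnh6, Kcnip3, Kcnmb2, Kcnc1, Kcnk3, Kcnmb1 and Kcnh8 are described here. For Kcnma1, Kcnb2, Kcnk16, Kcnh6 and Kcnip3, every sample with Ngn3 lay above every sample without, which was true of 0.542% of all genes tested. No channel gene had all samples with Ngn3 below all samples without, a pattern found in 0.15% of all genes tested. Each switched-on gene described other than Kcnh8 had no count in at least 1 of the 6 conditions without Ngn3, so its fitted log2 fold change depends on the prior count.

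**Figure D1:**
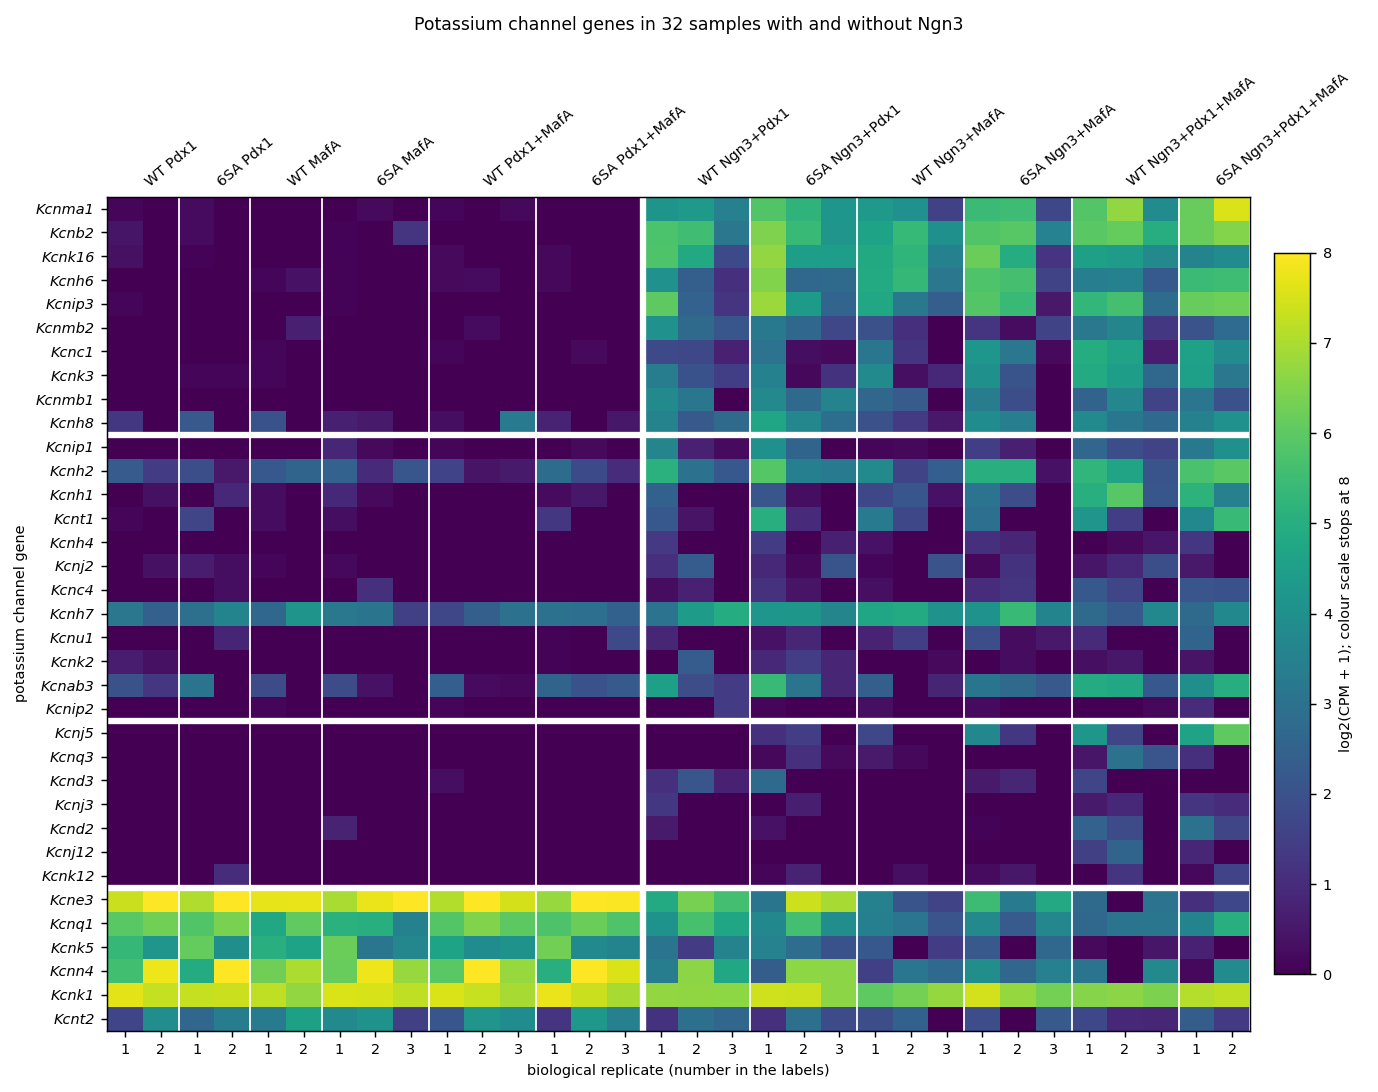
Levels of 35 channel genes, as log2(CPM + 1) on a colour scale, in 32 samples (columns, numbered by replicate and grouped by condition, with the 15 samples without Ngn3 at left). White lines separate, from top to bottom, 10 switched-on genes, 12 other genes called higher, 7 genes called higher only with a common Ngn3 term, and 6 genes called lower. The upper block is dark at left and bright at right, and the lowest block is the reverse.

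Voltage-gated pore subunits made up 30 of the 93 genes. Of the 28 tested, 12 were higher with Ngn3 and 1 was lower. Kcnb2 encodes a delayed rectifier that helps to end action potentials. Kcnb2 had a lowest, median and highest level of 8.04, 45.5 and 91.4 CPM in the 17 samples with Ngn3. Without Ngn3 it ranged from 0 to 1.32 CPM with a median of 0. The groups did not overlap, all 29 pools with Ngn3 had more than 3 counts, and 1 of 29 pools without Ngn3 did. The log2 fold change was 9.75 ± 0.67 (SE; edgeR adjusted p = 3.5e-10).

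Kcnh6 encodes an ERG-type (Kv11) channel, as do Kcnh2 and Kcnh7. ERG currents contribute to repolarisation in heart and islet cells. Kcnh6 stood at 1.15, 10.5 and 88.9 CPM with Ngn3 (lowest, median, highest) and at 0 to 0.308 CPM without. No sample with Ngn3 was as low as the highest without it, and the log2 fold change was 8.74 ± 0.76 (edgeR adjusted p = 4.31e-09). Kcnh2, whose current repolarises the heart muscle cell, was already present without Ngn3, at 0.349, 2.46 and 6.06 CPM. It was higher with Ngn3, at 0.306, 13.2 and 61.0 CPM (log2 fold change 3.04 ± 0.54, edgeR adjusted p = 0.00011), but the groups overlapped. Kcnh7 differed least of the higher genes, with 3.80, 15.7 and 41.3 CPM against 1.85, 6.78 and 16.7 CPM (log2 fold change 1.12 ± 0.30, edgeR adjusted p = 0.0063).

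Kcnc1 and Kcnc4 encode channels that open at strong depolarisation and close fast in rapidly firing neurons. Kcnc1 had 3 counts in all samples without Ngn3 and 1700 with Ngn3, a ratio of pooled CPM of 457 (95% exact counting interval 156 to 2220). Such intervals treat reads as independent and leave out the spread between samples. Its level was 0, 2.43 and 29.8 CPM with Ngn3, and 13 of the 17 samples had more than 3 counts. The fitted log2 fold change was 7.75 ± 1.05 (edgeR adjusted p = 5.96e-06). Kcnc4 was at most 3.65 CPM with Ngn3 and 1.13 CPM without (log2 fold change 4.34 ± 1.08, edgeR adjusted p = 0.0053). The groups overlapped for both genes.

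Kcnh8 and Kcnh4 encode Elk-type and Kcnh1 an Eag-type channel. Kcnh8 met the rule for switched-on genes with a median of 0.429 CPM without Ngn3. Yet it had more than 3 counts in 10 of the 29 pools without Ngn3. It reached 8.91 CPM in replicate 3 of Pdx1 with MafA in the WT culture, and 3.75 CPM in replicate 1 of Pdx1 in the 6SA culture. With Ngn3 it stood at 0, 7.90 and 25.3 CPM (log2 fold change 2.79 ± 0.72, edgeR adjusted p = 0.005). Kcnh1 was 0, 3.39 and 59.7 CPM with Ngn3 and at most 0.900 CPM without (log2 fold change 5.06 ± 0.94, edgeR adjusted p = 0.00023). Kcnh4 had no count in the 15 samples without Ngn3, and its mean with Ngn3, 0.478 CPM, was at least 1.11-fold higher than the level of 3 counts per sample. DESeq2 did not call Kcnh4 (adjusted p = 0.139), and its contrast was undefined with the first technical repeat alone and without replicate 1.

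Kcnq1 encodes Kv7.1, the pore that pairs with KCNE subunits in secretory epithelia and heart. It was the one voltage-gated gene that was lower. Its level was 10.5, 57.4 and 89.2 CPM without Ngn3 and 3.33, 11.9 and 49.9 CPM with Ngn3. The log2 fold change was -1.94 ± 0.26 (edgeR adjusted p = 2.21e-06). The groups overlapped, and both the sample of MafA cells of the 6SA culture at passage 5 (10.5 CPM) and the replicate 2 samples of Ngn3 with Pdx1 (49.9 and 48.1 CPM) lay away from the rest of their group. Exons of Kcnq1 overlap the antisense gene Kcnq1ot1, and without strand their reads cannot be told apart.

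**Figure D2:**
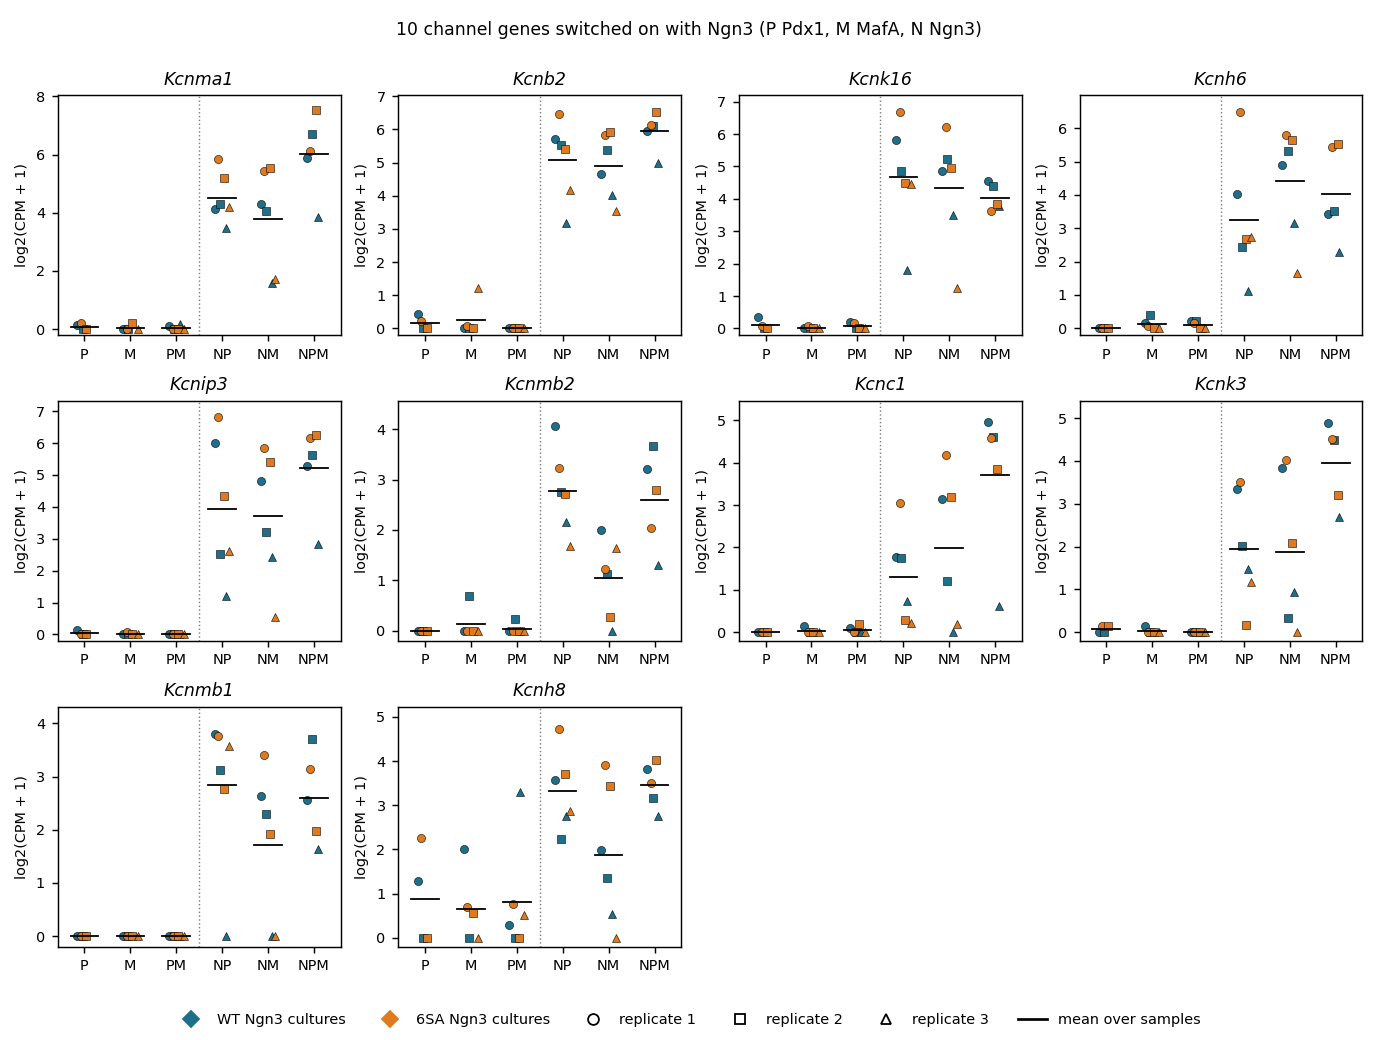
Levels of 10 switched-on genes as log2(CPM + 1) by the factors in the cells (P Pdx1, M MafA, N Ngn3, joined where cells had several), 1 point per sample, coloured by culture, with symbols for replicates 1 to 3 and a bar for the mean. Vertical scales differ between genes. Points right of the dotted line are samples with Ngn3, and the triangles of passage 5 are often the lowest of them.

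Of the 8 calcium- and sodium-activated pore subunits, all tested, 3 were higher and 2 were lower. Kcnma1 encodes the BK channel, which opens on both depolarisation and calcium and is found in islet cells and in duct epithelium. It had the lowest adjusted p of the channel genes. The samples with Ngn3 held 1.97, 18.5 and 184 CPM (lowest, median, highest), and those without held 0 to 0.168 CPM, with 7 counts in all. No sample overlapped, all 29 pools with Ngn3 and none of the 29 without had more than 3 counts, and the log2 fold change was 9.60 ± 0.68 (edgeR adjusted p = 2.03e-10). Kcnt1 encodes the sodium-activated channel Slack. It reached 40.6 CPM with Ngn3 and 2.18 CPM without, overlapped between the groups and had a log2 fold change of 5.12 ± 1.18 (edgeR adjusted p = 0.0021). Kcnu1, the sperm channel Slo3, was at most 5.02 CPM (log2 fold change 3.95 ± 1.19, edgeR adjusted p = 0.0193). Its call was lost by DESeq2 (adjusted p = 0.0786) and without replicate 2 (edgeR adjusted p = 0.0632), and without replicate 1 the contrast was undefined.

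Kcnn4 encodes the intermediate-conductance calcium-activated channel of secretory epithelia. Without Ngn3 its level was 29, 109 and 266 CPM. With Ngn3 it was 0, 9.5 and 99.2 CPM, a log2 fold change of -3.30 ± 0.55 (edgeR adjusted p = 5.56e-05). The 3 highest samples with Ngn3 were all cells with Ngn3 and Pdx1, at 95.8, 99.2 and 96.3 CPM, and these overlapped the samples without Ngn3. Kcnt2, the relative of Kcnt1 known as Slick, moved the other way from it, with 1.30, 10.1 and 22.5 CPM without Ngn3 and 0, 2.55 and 6.74 CPM with Ngn3 (log2 fold change -1.96 ± 0.53, edgeR adjusted p = 0.008). Kcnn3, a small-conductance SK channel, stood at 7.82, 16.8 and 75.5 CPM with Ngn3 and 7.27, 21.2 and 51.2 CPM without (log2 fold change 0.01 ± 0.32, edgeR adjusted p = 1.0).

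Auxiliary subunits showed both directions as well. Of 16 genes, 13 were tested, 6 were higher and 1 was lower. Kcnip3, also known as DREAM or calsenilin, binds calcium, modulates Kv4 channels and can repress transcription. It had 2 counts in all samples without Ngn3 together and 8087 with Ngn3, a ratio of pooled CPM of 3263 with a 95% exact counting interval of 903 to 26950. In the samples with Ngn3 it stood at 0.458, 26.9 and 111 CPM, all above the highest sample without (0.0902 CPM). The fitted log2 fold change was 10.53 ± 1.04 (edgeR adjusted p = 1.49e-07). Kcnip1, the KChIP of many interneurons, ranged from 0 to 15.2 CPM with Ngn3 and from 0 to 0.807 CPM without (log2 fold change 5.89 ± 0.99, edgeR adjusted p = 8.52e-05).

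Kcnmb1 and Kcnmb2 encode beta subunits of the BK channel, which raise its calcium sensitivity or inactivate it. Kcnmb1 had no count in any of the 15 samples without Ngn3. With Ngn3 it was 0, 5.24 and 13 CPM, with more than 3 counts in 14 of 17 samples, and its mean was at least 13.8-fold higher than the level of 3 counts per sample. The 3 samples without a count were all of passage 5. Kcnmb2 had 3 counts without Ngn3 and 900 with it, a ratio of 242 (95% exact counting interval 82.6 to 1176), and stood at 0, 3.12 and 15.6 CPM with Ngn3 (log2 fold change 7.10 ± 0.87, edgeR adjusted p = 2.65e-06). Kcnma1 and both of these beta subunits were thus higher together, while Kcnmb3 and Kcnmb4 had at most 1.18 and 1.06 CPM with Ngn3 and a contrast that was undefined, as described for Kcnj5. Kcnmb1 lies inside the span of Kcnip1 on the opposite strand of chromosome 11, and their exons do not overlap.

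Kcne3 encodes the beta subunit that holds Kv7.1 open in secretory epithelia. It was the most abundant channel gene per exon length without Ngn3, and was lower with it. The 15 samples without Ngn3 held 107, 210 and 485 CPM. The 17 with Ngn3 held 0, 8.72 and 165 CPM, a log2 fold change of -4.15 ± 0.44 (edgeR adjusted p = 6.26e-08). Only the replicate 2 and 3 samples of 6SA Ngn3 with Pdx1, at 165 and 122 CPM, reached into the range of the samples without Ngn3. Kcnq1 and Kcne3, which form one channel, were both lower. Kcnab3 and Kcnip2 also passed the test in the higher direction, with edgeR adjusted p values of 0.0225 and 0.0406. These names lie outside the naming rule and were chosen after their values were seen. Kcnip2 had 34 counts with Ngn3 and 2 without, and its call was lost with the replicate number as a block (edgeR adjusted p = 0.0763), with a block within cultures (0.196), without edgeR's legacy setting (0.304) and without replicate 2 (0.17). DESeq2 gave Kcnip2 no adjusted p, another filter left it out, and its contrast was undefined without replicate 1, without replicate 3 and with the first repeat alone.

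**Figure D3:**
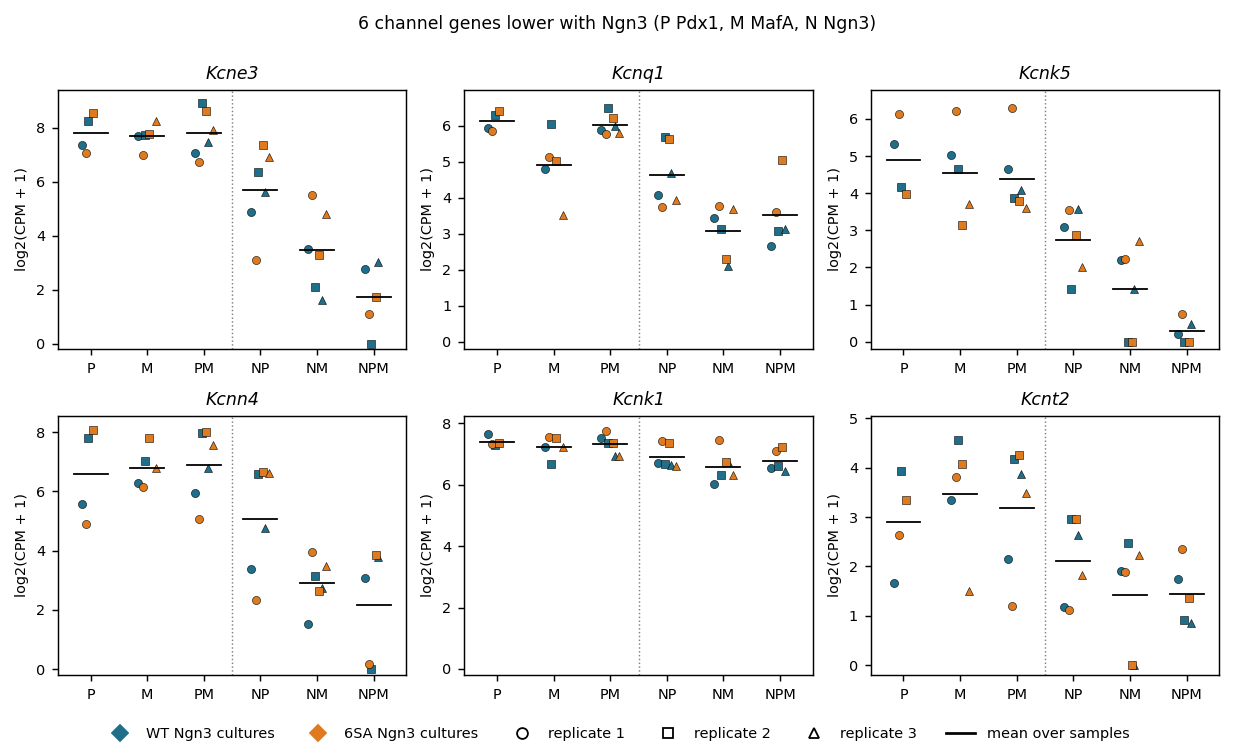
Levels of the 6 genes lower with Ngn3 as log2(CPM + 1), plotted as for the switched-on genes (P Pdx1, M MafA, N Ngn3; bars are means over samples). In Kcne3 and Kcnk5 the 3-factor cells lie below the cells with Ngn3 and Pdx1, and Kcnk1 differs least between the groups.

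Two-pore-domain subunits were 14 genes, of which 9 were tested, 3 were higher and 2 were lower. Kcnk16 encodes TALK-1, a leak channel of beta cells that opens at alkaline pH. It lies at chr14:20261376-20269199 on the minus strand of GRCm38. Its level with Ngn3 was 1.38, 21.3 and 103 CPM, against 0 to 0.270 CPM without, and no sample overlapped. The log2 fold change was 8.81 ± 0.71 (edgeR adjusted p = 6.69e-10). Kcnk5 encodes TASK-2, the alkaline-activated relative in kidney and duct epithelium, and lies 79567 bases away on the same strand, at chr14:20140057-20181809. It moved in the opposite direction, from 7.78, 17 and 77.3 CPM without Ngn3 to 0, 1.69 and 10.8 CPM with Ngn3 (log2 fold change -4.16 ± 0.58, edgeR adjusted p = 4.21e-06).

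Kcnk3 encodes TASK-1, an acid-sensitive leak channel also active in islet cells. It had 4 counts without Ngn3, and stood at 0, 5.45 and 28.7 CPM with Ngn3 (log2 fold change 8.16 ± 1.05, edgeR adjusted p = 6.91e-06). Kcnk1 encodes TWIK-1, a weak leak channel common in epithelia. It was abundant in every sample, at 102, 161 and 215 CPM without Ngn3 and 63.6, 102 and 173 CPM with Ngn3. The difference was small (log2 fold change -0.52 ± 0.14, edgeR adjusted p = 0.007) and the groups overlapped in most of their range. Kcnk2, outside the naming rule, passed the test with an edgeR adjusted p of 0.0194 and at most 4.05 CPM. It was not called by DESeq2 (adjusted p = 0.175) or without edgeR's legacy setting (adjusted p = 0.284), and its contrast was undefined without any 1 of the 3 replicates.

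The stretches before the start sites of Kcnk16 and Kcnk5 are shown because these neighbours moved in opposite directions, and those of Kcnma1 and Kcnh6 because these genes, like Kcnk16, separated the samples without overlap. Each is the 250 bases upstream of the RefSeq start in GRCm38.p6, written 5′ to 3′ on the strand of the gene. Capitals mark CANNTG, the E-box letters that basic helix-loop-helix factors such as Ngn3 can bind.
Kcnk16 (chr14:20269270-20269519, minus strand): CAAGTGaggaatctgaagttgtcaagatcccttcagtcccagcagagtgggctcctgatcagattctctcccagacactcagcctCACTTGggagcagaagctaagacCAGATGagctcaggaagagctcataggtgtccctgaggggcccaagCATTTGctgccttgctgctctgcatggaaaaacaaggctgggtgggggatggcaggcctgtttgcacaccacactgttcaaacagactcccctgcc
Kcnk5 (chr14:20181783-20182032, minus strand): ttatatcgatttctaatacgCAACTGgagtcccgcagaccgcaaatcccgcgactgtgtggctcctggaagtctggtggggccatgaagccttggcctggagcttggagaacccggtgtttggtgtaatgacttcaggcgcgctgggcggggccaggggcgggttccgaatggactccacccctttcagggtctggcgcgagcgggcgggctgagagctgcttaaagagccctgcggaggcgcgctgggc
Kcnma1 (chr14:24004206-24004455, minus strand): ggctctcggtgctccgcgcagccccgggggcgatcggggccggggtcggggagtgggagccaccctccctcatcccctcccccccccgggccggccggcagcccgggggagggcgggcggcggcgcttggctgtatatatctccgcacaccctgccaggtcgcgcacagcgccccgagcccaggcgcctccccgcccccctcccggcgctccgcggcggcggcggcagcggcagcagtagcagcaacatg
Kcnh6 (chr11:106007898-106008147, plus strand): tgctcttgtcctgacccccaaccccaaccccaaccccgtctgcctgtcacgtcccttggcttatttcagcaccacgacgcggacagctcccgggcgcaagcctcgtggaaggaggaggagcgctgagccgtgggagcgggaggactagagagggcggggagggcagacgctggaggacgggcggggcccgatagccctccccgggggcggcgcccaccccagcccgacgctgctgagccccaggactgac

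The Kcnk16 stretch held 4 E-boxes and no CG dinucleotide, at 54.8% G and C. One of its E-boxes reads CAGATG, a form preferred by neural helix-loop-helix factors. The Kcnk5 stretch held 1 E-box and 19 CG dinucleotides, at 62.8% G and C. Those of Kcnma1 and Kcnh6 held no E-box and 31 and 21 CG dinucleotides, at 79.2% and 70.8% G and C. CANNTG reads the same on both strands, so one search covers them. It was found in 66.2% of the 250-base stretches of all 32851 starts in the RefSeq table, in 3 of 10 starts of switched-on genes and in 6 of 6 starts of lowered genes. CAGATG or its reverse complement CATCTG, a subset of CANNTG, was found in 14.4% of all starts, 2 of 10 of the switched-on genes and 0 of 6 of the lowered genes. Of the 93 channel genes, 69 had a start in the table, as did 8 of the 12 switched-on genes, and some genes had several. These matches describe the letters in these windows only.

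Inward rectifiers were 14 genes, of which 8 were tested and 1 was higher by the averaged contrast. Kcnj2 encodes Kir2.1, which holds the resting potential of muscle and neurons. It reached 4.05 CPM with Ngn3 and 0.560 CPM without, with overlap (log2 fold change 3.86 ± 0.96, edgeR adjusted p = 0.0047). Kcnj5 and Kcnj3 encode GIRK channels, opened by G protein-coupled receptors such as those for somatostatin. Neither had a count in the 15 samples without Ngn3. In the samples with Ngn3, Kcnj5 stood at 0, 1.18 and 63.9 CPM. The highest values were in replicates 1 and 2 of 6SA 3-factor cells, at 23.2 and 63.9 CPM, followed by replicate 1 of the WT 3-factor cells, at 17.7 CPM. The mean of Kcnj5 with Ngn3 was at least 17.2-fold higher than the level of 3 counts per sample.

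The averaged contrast could not call Kcnj5, because in 1 of the 6 condition pairs neither group had a count. The mean of the 6 differences is undefined wherever a condition with Ngn3 and a condition without Ngn3 both hold no count. This was so for 25 of the 70 channel genes tested, and for 21.3% of all genes tested. All 25 were among the 39 channel genes not called, so the contrast gives no answer for them, and their fitted values and standard errors have no meaning. A fit with a common Ngn3 term over the culture and partner means, chosen after seeing the data, is defined for these genes. With it 32 channel genes were higher and 6 lower, where 14.1% and 11.2% of all genes were. All 31 earlier calls were kept, and Kcnj5, Kcnq3, Kcnd3, Kcnj3, Kcnd2, Kcnj12 and Kcnk12 were added. These genes were named after their values were seen, apart from Kcnd2, Kcnj3 and Kcnj5.

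The log2 fold change of Kcnj5 in that fit was 9.32 ± 1.52 (edgeR adjusted p = 0.00024), and it depends on the prior count because the level without Ngn3 was 0. Kcnq3, a voltage-gated pore subunit of neurons, also had no count without Ngn3 and reached 7.02 CPM with it (edgeR adjusted p = 0.0019). Kcnd2 and Kcnd3 encode the Kv4 pores of the fast transient current, to which the KChIP subunits bind. They reached 7.12 and 5.66 CPM with Ngn3 and 0.749 and 0.230 CPM without, with edgeR adjusted p values of 0.025 and 0.007 under the common term. Kcnj3 and Kcnj12 stayed at or below 4.97 CPM and were at 0 in every sample without Ngn3.

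Electrically silent modifier subunits, which form channels only together with Kv2 pores, were 10 genes. Of these, 3 were tested (Kcnf1, Kcng1 and Kcng2), and none passed the edgeR test, with 0 at an unadjusted p under 0.05. The contrast was undefined for all 3. Kcnf1 and Kcng1 reached 2.44 and 7.37 CPM with Ngn3. Kcnrg, a regulator that does not form a pore, was tested and not called. The 23 genes that were not tested had at most 49 counts in all samples together, and 5 of them had no count in any sample.

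**Figure D4:**
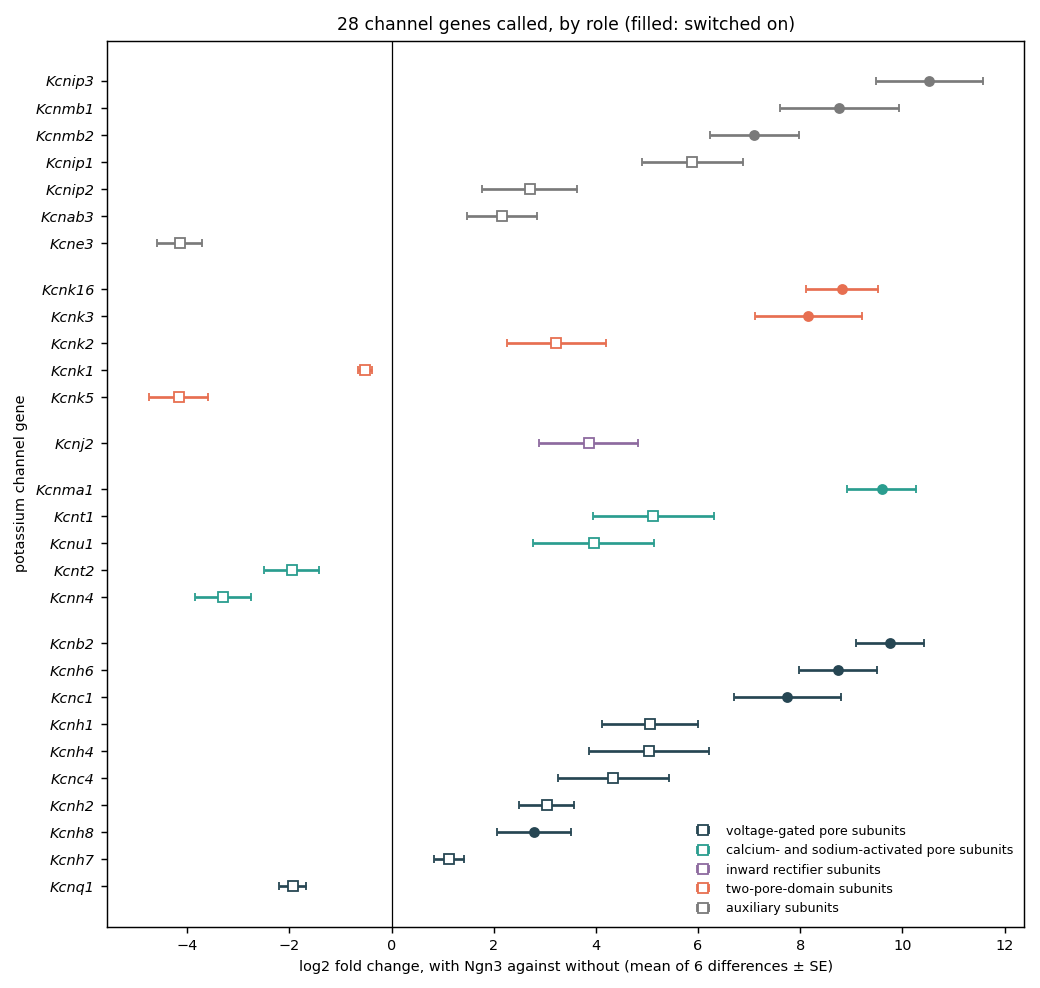
Log2 fold change of samples with Ngn3 against samples without, as the mean of 6 condition differences with its standard error, for 28 of the 31 channel genes called (edgeR adjusted p under 0.05), grouped and coloured by role. Filled circles are switched-on genes and open squares are the rest, and values of genes with no count in a condition depend on the prior count. Except for the inward rectifiers, with Kcnj2 alone, each role has genes on both sides of 0.

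Channels known from islet cells were listed from textbook knowledge, as were those of ducts and other epithelia. Of 14 islet channels, 12 were tested, and 7 were higher (among them Kcnc4, Kcnh2, Kcnh6, Kcnma1, Kcnk3 and Kcnk16) against 1 lower (Kcnq1), where 11.1% and 10.5% of all genes were. The median log2 fold change of the 9 with a defined contrast, in part selected by the change itself, was 5.87. Kcnd2, Kcnj3 and Kcnj5 were among the genes with an undefined contrast, and Kcnn3 was not called. Of 9 epithelial channels, 8 were tested, 5 were lower (Kcne3, Kcnq1, Kcnk5, Kcnn4 and Kcnk1) and 1 was higher (Kcnma1), beside the same shares of all genes. The median was -2.62 over the 6 with a defined contrast, with the same limit. Kcnk6 and Kcnj15 were tested without a defined contrast and reached at most 3.71 and 1.99 CPM. The lists share Kcnma1 and Kcnq1. The summed endocrine markers (502 to 14270 CPM with Ngn3, 1.32 to 9.01 CPM without) and duct markers (2470 to 21960 and 16880 to 65600 CPM) moved in the same directions as these lists, and their part in the result was not tested.

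Levels of different genes were compared as CPM per kilobase of exon. Without Ngn3, the order by median began with Kcne3 at 118, Kcnk1 at 72.2, Kcnn4 at 21.3, Kcnq1 at 14.0 and Kcnk5 at 5.01 CPM per kilobase. With Ngn3 the genes of highest median included Kcnk1 at 45.6, Kcnk16 at 8.95, Kcnip3 at 7.58, Kcne3 at 4.90, Kcnb2 at 3.00 and Kcnh6 at 2.97 CPM per kilobase. Kcnk1 was thus the leading channel mRNA with Ngn3, at a mean of 50.1 ± 15.3 CPM per kilobase (SD, n = 17). The switched-on genes that follow it differed by less than their spread, since Kcnk16 stood at 12.1 ± 11, Kcnip3 at 9.63 ± 9.20 and Kcnh6 at 6.88 ± 7.05 CPM per kilobase (SD, n = 17). Kcne3 fell from a mean of 134 ± 62.8 (SD, n = 15) to 18.7 ± 26.7 CPM per kilobase (SD, n = 17).

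**Figure D5:**
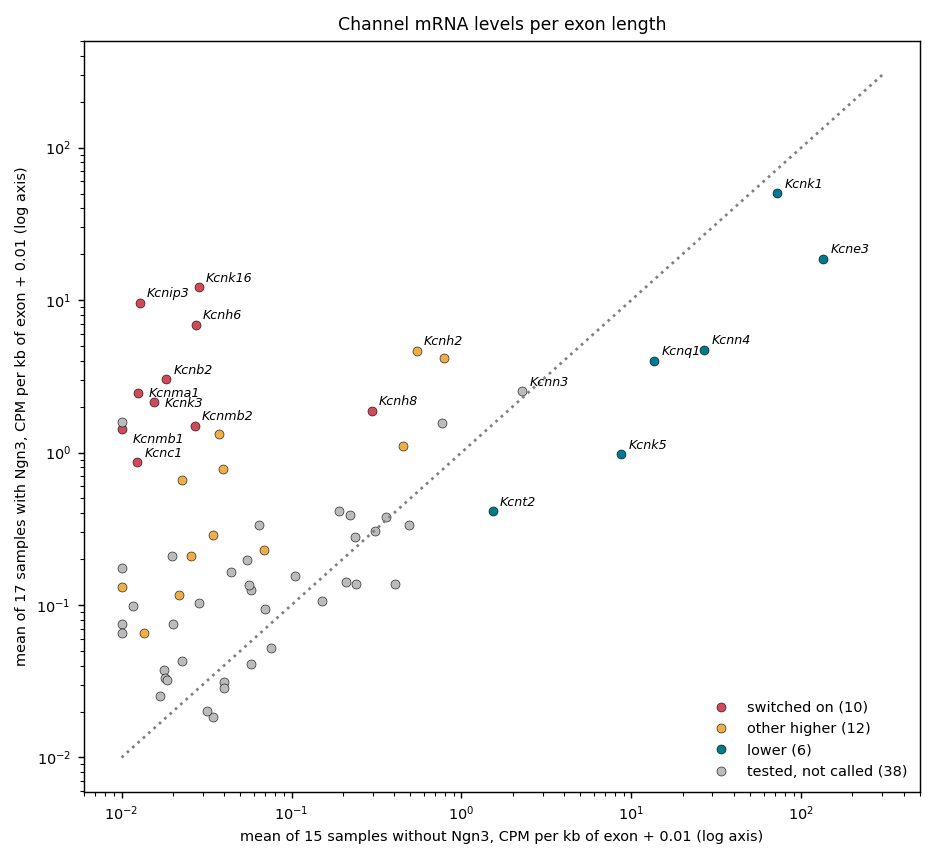
Mean level of 66 of the 70 tested channel genes in the 17 samples with Ngn3 (vertical) against the 15 without (horizontal), in CPM per kilobase of exon plus 0.01, both on log axes. The dotted line marks equal levels. Switched-on genes other than Kcnh8 lie near the left edge, up to a mean of 12.1 CPM per kilobase for Kcnk16, while lowered genes lie at right under the line.

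The effect of Ngn3 was next taken for each partner. Added to Pdx1 (6 samples against 4, the latter without passage 5), 8 channel genes were higher, where 1.32% of all genes were. None was lower, where 0.171% were. At an unadjusted p under 0.05 there were 23 channel genes, where 2899 of the 24004 genes tested were. DESeq2 gave 13 higher and 0 lower. The 5 with the lowest edgeR adjusted p were Kcnb2 (log2 fold change 7.90 ± 1.03, adjusted p = 7.80e-05), Kcnk16 (8.57 ± 1.20, adjusted p = 0.0001), Kcnma1 (7.94 ± 1.09, adjusted p = 0.000105), Kcnh6 (adjusted p = 0.000318) and Kcnip3 (adjusted p = 0.00316). Kcnh6 had no count in the 4 samples of Pdx1, and its mean of 20.2 CPM with Ngn3 was at least 50.0-fold higher than the level of 3 counts per sample. Kcnip3 had 1 count there, a ratio of pooled CPM of 2461 (95% exact counting interval 442 to 97250). With the replicate number as a block, 14 were higher, which kept all 8 and added Kcnc1, Kcnd3, Kcnh2 and Kcnk3 among others. Without replicate 2, which leaves 4 samples against 2, no gene passed the test.

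Added to MafA (6 samples against 5), 8 channel genes were higher and 4 lower, where 2.5% and 2.17% of all genes were. Kcnk16 (edgeR adjusted p = 3.36e-05), Kcnma1 (adjusted p = 3.59e-05), Kcnb2 (log2 fold change 9.03 ± 1.17, adjusted p = 4.42e-05) and Kcnh6 (adjusted p = 0.00014) were again highest in rank, and Kcne3 was lower (-4.15 ± 0.71, adjusted p = 0.000495). With MafA alone Kcnk16 and Kcnma1 had 1 count each and Kcnh6 had 3. The ratios of pooled CPM were 1475 (95% exact counting interval 264 to 58290), 1016 (182 to 40170) and 471 (161 to 2285) in this order. With the replicate block 15 were higher and 4 lower. Leaving out replicate 2 left 3 higher (Kcnma1, Kcnb2 and Kcnk16) and 1 lower (Kcne3), and leaving out replicate 1 left 5 higher.

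Added to Pdx1 with MafA (5 samples against 6), 27 channel genes were higher and 4 lower, where 9.42% and 8.4% of all genes were. Kcnma1 (edgeR adjusted p = 1.16e-07), Kcnb2 (adjusted p = 1.69e-07), Kcnk16 (log2 fold change 7.63 ± 1.00, adjusted p = 6.48e-06) and Kcnh6 (7.66 ± 1.05, adjusted p = 1.43e-05) were higher, and Kcne3 was lower (-6.53 ± 0.91, adjusted p = 1.23e-05). Kcnma1 had 2 counts with Pdx1 and MafA, a ratio of pooled CPM of 2547 (95% exact counting interval 705 to 21040). Kcnb2 had none, and its mean of 64.3 CPM in 3-factor cells was at least 179-fold higher than the level of 3 counts per sample. Here Kcnj5 was called too, with 17.7, 2.19 and 0 CPM in WT and 23.2 and 63.9 CPM in 6SA 3-factor cells and no count in the 6 samples of Pdx1 with MafA (edgeR adjusted p = 0.00284). That call was lost by DESeq2 (adjusted p = 0.0893) and without replicate 2 (edgeR adjusted p = 0.0754). Without replicate 2 the count fell to 10 higher.

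Whether the Ngn3 effect itself differed in 3-factor cells could be tested for 37 of the 70 channel genes, since the difference was undefined for the rest. The difference between that effect beside Pdx1 with MafA and beside Pdx1 gave 0 channel genes by edgeR, where 0.0125% of all genes were higher and 0.0833% lower. DESeq2 gave 0 higher and 1 lower. At an unadjusted p under 0.05 there were 7 channel genes, where 1710 of the 24004 genes tested were. Kcne3 had a log2 difference of -4.78 ± 1.05 (edgeR adjusted p = 0.0657), and passed the test with the replicate block (-4.55 ± 0.99, adjusted p = 0.0432). With a block within cultures both Kcne3 and Kcnk5 were lower (adjusted p = 0.0286 and 0.0435). Against MafA the difference also gave 0 by edgeR, where 0.0125% were higher and 0.0375% lower, and 0 by DESeq2. At an unadjusted p under 0.05 there were 8 channel genes, where 2244 of the 24004 genes tested were. A direct comparison of cells with Ngn3, chosen after seeing the data, called a few genes. Kcne3 was lower in 3-factor cells than in cells with Ngn3 and Pdx1 (log2 fold change -4.69 ± 0.82, edgeR adjusted p = 0.00205), at 5.83, 0 and 7.18 CPM in WT and 1.15 and 2.34 CPM in 6SA cells, against 28.4, 81.6 and 47.9 CPM in WT and 7.57, 165 and 122 CPM in 6SA cells. All 5 samples of 3-factor cells were below the 6 others, at the closest with 7.18 against 7.57 CPM. The share of all genes separated in this way was not counted. Kcnk5 was also lower (-4.64 ± 1.10, edgeR adjusted p = 0.0228). Neither call remained without replicate 2. With the replicate block Kcnn4 was lower too, and Kcnh1 and Kcnj5 were higher. In the fit used throughout no channel gene was higher by edgeR, where 0.525% of all genes were higher and 1.35% lower. At an unadjusted p under 0.05 there were 19 channel genes, where 3668 of the 24004 genes tested were. DESeq2 called 1 higher (Kcnh1), and edgeR called 6 higher without the gene filter and 4 without its legacy setting.

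Against cells with Ngn3 and MafA, 3-factor cells had more Kcnd2 (edgeR adjusted p = 0.0293) and Kcnip1 (log2 fold change 4.56 ± 1.25, adjusted p = 0.0476), where 1.17% of all genes were higher and 1.56% lower. Kcnd2 encodes a Kv4 pore and Kcnip1 one of its KChIP partners. Kcnd2 was 4.78, 2.63 and 0 CPM in WT and 7.12 and 2.17 CPM in 6SA 3-factor cells. In cells with Ngn3 and MafA it was 0 in 5 samples and 0.0611 CPM, from 1 count, in replicate 1 of the 6SA culture, a ratio of pooled CPM of 232 (95% exact counting interval 41.1 to 9186). Neither call remained without replicate 1, without replicate 2 or with the first technical repeat alone (edgeR adjusted p = 0.0671 and 0.0973 in the last). DESeq2 kept Kcnip1 and did not call Kcnd2 (adjusted p = 0.41). With the replicate block 8 channel genes were higher, among them Kcnma1, Kcnn3 and Kcnh1, and Kcne3 and Kcnk5 were lower. Kcnh1 stood at 32, 59.7 and 3.46 CPM in WT and 34.8 and 10.2 CPM in 6SA 3-factor cells. It was at most 4.58 CPM with Ngn3 and Pdx1 and 7.27 CPM with Ngn3 and MafA. In the fit used throughout, Kcnh1 passed the test against neither (edgeR adjusted p = 0.0877 and 0.128). The replicate block called it against both (edgeR adjusted p = 0.00483 and 0.0215). So did edgeR without the gene filter and without its legacy setting. DESeq2 and the first technical repeat alone called it against Ngn3 with Pdx1 only. A fit of only the conditions compared called it against Ngn3 with MafA only. The 3-factor group holds 1 passage 5 sample of 5 and each other group with Ngn3 holds 2 of 6, and the part of passage in these differences was not tested.

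Between the partners themselves edgeR called no channel gene in the fit used throughout. Ngn3 with Pdx1 against Ngn3 with MafA gave 0 by edgeR, where 0.0875% of all genes were higher and 0.0458% lower. At an unadjusted p under 0.05 there were 12 channel genes, where 2065 of the 24004 genes tested were. DESeq2 called 4 higher. Kcnq1 came nearest (log2 fold change 1.74 ± 0.42, edgeR adjusted p = 0.0853), was among those 4, and passed the test with the replicate block (1.55 ± 0.36, adjusted p = 0.0343). Pdx1 against MafA without Ngn3 gave 0 by edgeR and DESeq2, and edgeR called no gene of all those tested. There were 3 channel genes at an unadjusted p under 0.05, where 675 of the 24004 genes tested were. The first of these contrasts was defined for 60 and the second for 42 of the 70 channel genes.

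The form of Ngn3 was compared last. In WT cultures 15 channel genes were higher and 5 lower with Ngn3, where 4.23% and 4.36% of all genes were. In 6SA cultures 18 were higher and 4 lower, where 8.12% and 5.98% were. Leading genes in WT cultures were Kcnb2 (log2 fold change 10.05 ± 1.00, edgeR adjusted p = 7.95e-07), Kcnma1 (adjusted p = 1.28e-06), Kcnk16 (8.65 ± 1.03, adjusted p = 2.65e-06), Kcne3 (-4.45 ± 0.59, adjusted p = 9.79e-06) and Kcnh6 (7.42 ± 1.07, adjusted p = 4.15e-05). In 6SA cultures they were Kcnma1 (log2 fold change 10.23 ± 0.94, adjusted p = 7.56e-08), Kcnb2 (9.45 ± 0.89, adjusted p = 1.93e-07), Kcnk16 (8.98 ± 0.97, adjusted p = 4.46e-07), Kcnh6 (adjusted p = 6.79e-07) and Kcnip3 (adjusted p = 1.79e-05). With 3 counts of Kcnma1 without Ngn3 in WT cultures, and 3 of Kcnh6 and 1 of Kcnip3 in 6SA cultures, their ratios of pooled CPM were 526 (95% exact counting interval 180 to 2550), 1354 (463 to 6568) and 5213 (935 to 205900). Leaving out replicate 2 left 5 higher in WT and 7 in 6SA cultures, and leaving out replicate 1 left 9 in WT cultures.

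A direct test of 6SA against WT Ngn3 cells called no channel gene and no gene of all those tested, by edgeR, and DESeq2 called no channel gene. Without the gene filter edgeR called 3 channel genes higher, with Kcnh6 as 1 of them. At an unadjusted p under 0.05 there were 9 channel genes, where 1421 of the 24004 genes tested were. Kcnh6 was among them, with 15.4, 4.38 and 1.15 CPM in WT and 88.9, 5.46 and 5.73 CPM in 6SA cells with Ngn3 and Pdx1, 28.8, 39 and 8.02 against 54.9, 49.4 and 2.14 CPM with MafA, and 9.72, 10.5 and 3.86 against 42.6 and 44.9 CPM in 3-factor cells (log2 difference 1.72 ± 0.61, edgeR adjusted p = 0.78). Kcnma1 had a log2 difference of 1.24 ± 0.51 (edgeR adjusted p = 0.797). The test of whether the Ngn3 effect itself differed between forms also called none, and DESeq2 called 0. There was 1 channel gene at an unadjusted p under 0.05, where 647 of the 24004 genes tested were. The direct test was defined for 55 and the test of the effect for 31 of the 70 channel genes.

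Among the samples with Ngn3, Neurog3 and each switched-on gene described had a lower median at passage 5 than at passage 2. Whether these genes followed Neurog3 from sample to sample was not tested. The 12 samples of passage 2 held 34.9, 148 and 329 CPM of Neurog3 (lowest, median, highest), and the 5 of passage 5 held 7.87, 24.9 and 38.8 CPM. Kcnb2 stood at 24.1, 57.9 and 91.4 CPM in the former and 8.04, 15.3 and 30.4 CPM in the latter. Kcnip3 had medians of 44.8 and 4.39 CPM, Kcnh6 of 33.9 and 3.86 CPM and Kcnma1 of 43.8 and 10.2 CPM in this order. The summed endocrine markers stood at 2109, 6103 and 14270 CPM at passage 2 and at 502, 1170 and 1578 CPM at passage 5, and their part and that of Neurog3 in the result were not tested. Without replicate 3, 24 channel genes were higher and 6 lower. Without replicate 1, 17 were higher and 5 lower, and the contrast became undefined for 9 of the genes called, among them Kcnc4, Kcnh1, Kcnh4, Kcnj2, Kcnt1 and Kcnu1. Without replicate 2, 15 were higher and 4 lower, and the calls of Kcnab3, Kcnh7, Kcnh8, Kcnj2, Kcnt1 and Kcnt2 were among those lost (edgeR adjusted p = 0.294, 0.175, 0.158, 0.0703, 0.0939 and 0.362).

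Genes that work with these channels but carry other names were counted on a list of 16, of which 14 were tested. With Ngn3, 7 were higher and 1 was lower, where 11.1% and 10.5% of all genes were. Abcc8, the sulfonylurea receptor of the KATP channel, had 10.5, 147 and 643 CPM with Ngn3 and 0, 1.44 and 36.5 CPM without (log2 fold change 5.54 ± 0.79, edgeR adjusted p = 5.92e-06). Amigo1, which binds Kv2 channels, stood at 6.88, 41.4 and 179 CPM against 2.47, 8.14 and 21.0 CPM (log2 fold change 2.67 ± 0.34, edgeR adjusted p = 1.19e-06). Tmem38a and Hcn4 followed, with log2 fold changes of 2.59 ± 0.38 and 5.84 ± 0.94 (edgeR adjusted p = 8.99e-06 and 4.07e-05). Lrrc26, a gamma subunit of the BK channel in epithelia, was the one lower gene (log2 fold change -2.09 ± 0.50, edgeR adjusted p = 0.00267). Kcnma1 thus came with Kcnmb1 and Kcnmb2 higher and Lrrc26 lower.

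Potassium pumps and cotransporters were a list of 17, of which 13 were tested, 3 were higher (Atp4a, Slc12a5 and Atp1b2) and 2 lower, among them Slc12a2, where 11.1% and 10.5% of all genes were. Slc12a2, the NKCC1 cotransporter that loads chloride and potassium into secretory cells, was 231, 438 and 797 CPM without Ngn3 and 23.9, 123.1 and 467 CPM with Ngn3 (log2 fold change -1.86 ± 0.25, edgeR adjusted p = 2.23e-06). Atp4a, the catalytic subunit of the gastric proton-potassium pump, was higher (log2 fold change 3.83 ± 0.54, edgeR adjusted p = 5.01e-06) and reached 610 CPM in 1 sample, while its beta subunit Atp4b was not tested and had at most 0.183 CPM with Ngn3.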

How the data were processed

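RNA sequencing libraries of 50-cell pools were prepared by a single-cell protocol with Nextera XT and read as single ends. Per the labels and methods, the authors aligned reads with GSNAP to mm10, assigned them to Ensembl genes with HTSeq 0.5.3p3 and deposited them as raw, unscaled counts, with 1 column for each technical repeat. Whether counting used strand is not given in the sources used here. The kit does not mark strand, and 11 of the 31 channel genes called share exon sequence with an opposite-strand gene, so their reads cannot be told apart. The table held 92 spike-in sequences, which were left out of library sizes. Gene symbols were matched for 45143 of 46078 genes from an annotation of GRCm38.

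Libraries were kept with over 1000000 gene counts, under 25% spike-in counts and over 10000 detected genes, which removed 3 of 61. Technical repeats were summed, and no 2 libraries were identical. Tests covered the 24004 genes that had a count in 5 or more libraries and varied by over 0.001 (variance of log2(CPM + 1)). Levels are CPM after TMM scaling, and 3 counts were taken as the limit of detection in a sample, which covers counting error only, since amplified reads are not independent molecules. The exact counting intervals of pooled ratios have the same limit and do not hold the spread between samples. Tests were edgeR 4.0.16 quasi-likelihood tests in R 4.3.3, in 1 model of 12 conditions, with Benjamini-Hochberg adjustment over all genes tested, at 0.05. Standard errors are the absolute log2 fold change over the square root of F. On simulated data of 24004 genes for the contrast over all conditions, 98% of 16-fold and 81% of 4-fold changes were recovered. Of 197 calls, 18 fell on unchanged genes, a larger share than the limit of 0.05. These rates were not taken separately for genes of few counts or with an undefined contrast, and may not hold for them. Nothing says that replicates came from separate animals, so p-values may measure technical spread only. DESeq2 1.42.0, other scalings and filters, a replicate block and leaving out each replicate were alternatives.

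Labels give the same replicate numbers to all conditions. Deviations from condition means over the 5000 most expressed genes correlated above 0.1 in all same-number pairs for Ngn3 added to Pdx1 (4 pairs), added to MafA (5 pairs) and within WT cultures (7 pairs), and in 12 of 14 pairs in all. Named genes were the switched-on genes, up to 10 other higher and 10 lower by adjusted p, up to 5 per other contrast, and the tested islet and epithelial channels, and a few of these are not reported here. The channel genes and lists were chosen with earlier results of these data known. Promoter sequences are from RefSeq (GRCm38.p6).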

Additional observations from a re-analysis of the deposited data

Results flagged for a closer look

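Signals of switched-on channel genes were looked for in the 3 libraries left out for low counts, all of 3-factor cells, where they enter no comparison. Of 30 values (10 genes in 3 libraries), 13 had more than 3 counts and lay above every sample without Ngn3. In the library of 6SA cells of replicate 2 (repeat 2), Kcnma1 stood at 99.4 CPM, Kcnb2 at 74.5 CPM, Kcnip3 at 33.1 CPM, Kcnh8 at 20.7 CPM and Kcnc1 at 16.6 CPM. In that of 6SA cells of replicate 3, Kcnma1 stood at 44.0 CPM, Kcnb2 at 31.8 CPM and Kcnmb1 at 24.5 CPM. In that of WT cells of replicate 2 (repeat 1), Kcnb2 stood at 67.1 CPM, Kcnc1 at 55.9 CPM, Kcnma1 at 51.2 CPM, Kcnip3 at 43.2 CPM and Kcnk3 at 11.2 CPM. These libraries held 241563 to 625650 counts, so that 1 count weighs more in them than in any sample used, and the values are scaled by the library total alone. No condition had more than 3 samples, so no sample was tested as an outlier.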

How the results depend on the processing

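Counts are of channel genes, higher or lower. The contrast over all conditions, those within WT and 6SA cultures and that for Pdx1 with MafA stayed within 1.5 times their counts under each alternative other than leaving out a replicate. Ngn3 added to Pdx1 gave 8 higher, and 13 by DESeq2, 16 without the gene filter, 14 with the replicate block and 14 with a block within cultures. It gave 0 lower, and 3 without the filter and 1 each with the block within cultures, without edgeR's legacy setting and with only the conditions compared. Ngn3 added to MafA gave 8 higher, and 17 without the filter and 15 with either block. 6SA against WT Ngn3 gave 0 higher, and 3 without the filter. Ngn3 with Pdx1 against Ngn3 with MafA gave 0 higher, and 4 by DESeq2, 4 without the filter, 1 with either block and 2 without the legacy setting, and 1 lower without the filter. The 3 factors against Ngn3 with Pdx1 gave 0 higher, and 1 by DESeq2, 6 without the filter, 2 with either block, 1 with the first repeat alone, 4 without the legacy setting and 1 with only the conditions compared, and 2 lower, 1 with only the conditions compared. Against Ngn3 with MafA they gave 2 higher, and 4, 12, 8, 0, 8 and 4 in this order, and 0 lower, and 3 by DESeq2, 2 without the filter, 2 with the replicate block, 3 with the block within cultures, and 1 each with the first repeat and without the legacy setting. The difference in the Ngn3 effect from Pdx1 gave 0, and 2 higher and 3 lower without the filter, and 1 lower by DESeq2, with the replicate block and without the legacy setting and 2 with the block within cultures. That from MafA gave 1 higher and 2 lower without the filter. The cause was not tested.

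Leaving out each replicate gave 15 to 24 higher and 4 to 6 lower over all, 5 to 17 and 4 to 5 in WT cultures, 7 to 20 and 3 to 4 in 6SA cultures, 0 to 12 higher for Pdx1, 3 to 9 higher and 1 to 4 lower for MafA, 10 to 22 and 4 to 5 for Pdx1 with MafA, 0 to 3 higher for Ngn3 with Pdx1 against MafA, 0 to 5 and 0 to 3 for the 3 factors against Ngn3 with Pdx1, 0 to 3 and 0 to 1 against Ngn3 with MafA, and 0 to 1 each way for the difference from Pdx1. Fewer samples enter these fits, and over all the contrast became undefined for 9 genes called without replicate 1, 1 without replicate 2 and 2 without replicate 3. Where this leaves 1 sample in a condition, it is assumed to vary like the other conditions. The replicate block changed no count by over 1.5 times over all, within cultures or for Pdx1 with MafA, where the pairs of 6SA cells correlated at -0.387 and -0.315. Of the switched-on and lower genes described, Kcnh8 and Kcnt2 lost their call over all without replicate 2, and Kcnk1 without the filter, with the first repeat alone and without replicate 1 or 2. Kcnn3, not called, had a log2 fold change of -0.0515 with all libraries, -0.0963 with the first repeat and -0.0071 with the common Ngn3 term, and of -0.16 to 0.52 when a replicate was left out. The common term, the legacy setting and the comparisons of the 3-factor cells and of their Ngn3 effect were chosen after seeing the data. Depth limits genes of a few counts in a sample, since 1 count is near the lowest level measured.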
